A study of Mus musculus with 6 samples.

Results

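The autophagy machinery genes described here are 35 genes chosen by symbol: 5 of the ULK1 complex, 5 of the Beclin 1 lipid kinase complexes, 5 of the ATG9, ATG2 and WIPI group, 5 of the ATG12, ATG5 and ATG16L system, 6 enzymes that process or conjugate ATG8 proteins, 5 ATG8 family genes and 4 cargo receptors. All 35 matched a symbol among the 24062 of the deposited table, and all 35 were among the 13990 genes with enough counts to be tested. RNA had been sequenced from 6 samples of C57BL/6 mouse embryonic fibroblasts (connective tissue cells grown from embryos), each taken at day 10. In 3 of them (p27OE) the kinase inhibitor p27 had been overexpressed with a lentivirus, and 3 were named EV control. The labels do not spell out EV, do not say whether samples of a group were separate cultures or embryos, and call the p27OE cells senescent in the titles but non-senescent in the design text. A dataset tag stands in the EV control titles alone. P-values measure the spread between these samples, which may be partly technical. The comparison asks how the transcripts of this pathway stood in cells with raised p27.

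Autophagy carries cytoplasm, damaged organelles and protein aggregates to the lysosome inside a double membrane, the autophagosome. A kinase complex built on ULK1 starts the process, and a lipid kinase complex with Beclin 1 and VPS34 then marks the growing membrane. The ATG9, ATG2 and WIPI proteins supply and bind lipid. A pair of ubiquitin-like conjugation systems attaches proteins of the ATG8 family (the LC3 and GABARAP proteins) to that membrane, where cargo receptors such as p62 and optineurin hold what is to be degraded. The pathway stays active at a basal level in fibroblasts and is controlled to a large part after transcription, so a transcript level is not a measure of autophagic flux.

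Library totals lay between 39183624 and 61219345 counts. Cdkn1b, the gene for p27, was at 43.9, 31.5 and 32.3 CPM (read counts scaled to library size) in EV control 1, 2 and 3 and at 167, 232 and 337 CPM in p27OE 1, 2 and 3; it rose by 2.77 ± 0.29 on the log2 scale (SE; adjusted p = 0.028, and up to 0.189 when a library other than EV control 1 is left out). All 10 fibroblast markers had enough counts for the test, Col1a1 at 12835 CPM or more in each library, though Dcn and Lum were at 4.18 to 11.2 CPM in EV control 2, EV control 3 and p27OE 3. The summed level of 11 macrophage markers was 75.002 CPM in EV control 1 and between 17.6 and 33.4 CPM in the other libraries, of which Lyz2 was the largest part; none of the 10 tested was called, and their part in the results was not tested. The 6 endothelial markers summed to 3.32 to 3.93 CPM in EV control and 4.30 to 7.73 CPM in p27OE; Pecam1, Cdh5 and Tie1 stayed under 1 CPM, while Tek reached 6.49 CPM in p27OE 1 and Kdr and Emcn passed 1 CPM in some libraries. The 6 epithelial markers summed to 14.95 to 36.5 CPM and 21.4 to 26.4 CPM, nearly all of it Krt19 (14.5 to 36.2 CPM); Cdh1 reached 2.25 CPM in p27OE 1, and Epcam, Krt5, Krt14 and Cldn4 stayed under 1 CPM. None of the tested markers of either list was called, and their part in the results was not tested. EV control 1 and p27OE 1 had almost no Y-linked transcripts (0.125 and 1.95 CPM summed over 4 genes), p27OE 2 had 57.1 CPM and the other 3 had 124 to 137 CPM. Xist, a transcript of the inactive X chromosome, ran the other way. It was at 407 CPM in EV control 1, 330 CPM in p27OE 1, 164 CPM in p27OE 2 and 0.457 to 5.67 CPM in the other 3. Member values are therefore also given by library. In bulk RNA, a change in the share of cells that carry a transcript and a change in its amount per cell cannot be told apart.

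Most autophagy machinery transcripts were slightly higher in p27OE cells. Of the 35, 31 had a log2 fold change above 0 and 4 below, with a median of 0.24; over all 13990 tested genes the median was 0.01 and 51.8% lay above 0. The differences were small: none of the 35 reached 1.5-fold in the fit, a size that 15.6% of all tested genes passed. That share includes genes of lower level, with group means down to 0.03 CPM, where the lowest group mean of a member was 4.56 CPM. Map1lc3b, Gabarapl1 and Optn rose (edgeR, adjusted p under 0.05) and none fell. These 3 are 8.57% of the members, where 1.77% of all tested genes rose and 0.843% fell (2.61% in all). At an unadjusted p under 0.05, 17 members were higher and 1, Atg4d, was lower, beside 13.1% and 12.9% of all genes (26.0% in all).

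The 3 p27OE libraries all lay on 1 side of the 3 EV control libraries for 19 of the 35 members, 54.3%, where 33.3% of all tested genes had no overlap. In 18 of the 19 the p27OE libraries were the higher ones (51.4%, beside 16.8% of all genes). The 35 genes together summed to 2278, 2149.6 and 2152 CPM in EV control 1, 2 and 3 and to 2477, 2521 and 2832 CPM in p27OE 1, 2 and 3. The median member, set against its own control mean, stood at 0.08, −0.04 and −0.02 log2 units in the EV control libraries and at 0.16, 0.19 and 0.32 in p27OE 1, 2 and 3. By this median EV control 1 lay nearest the p27OE libraries among the controls, and p27OE 3 lay farthest from them.

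**Figure D1:**
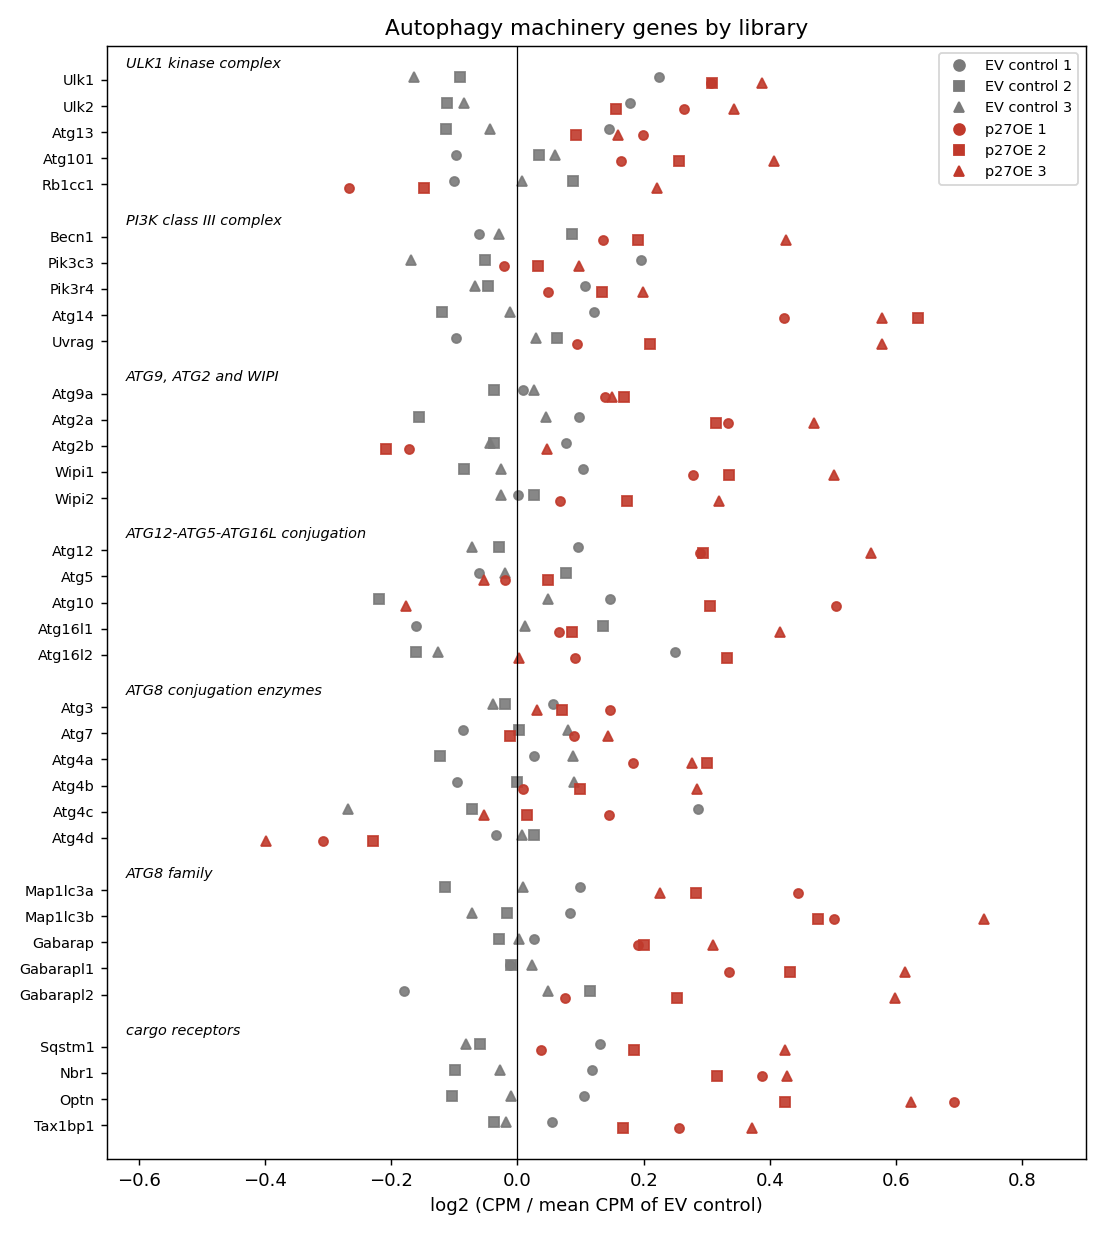
Each row is a gene and each point a library, as log2 of its CPM over the mean CPM of the EV control libraries (grey EV control, red p27OE; circle, square and triangle are replicates 1, 2 and 3). Most red points lie to the right of 0, the ATG8 family and the receptors farthest (medians of 0.32 and 0.32 log2 fold change), while Atg4d lies to the left in all 3 p27OE libraries.

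The ATG8 family held 2 of the 3 genes that rose, and none of its members lay below 0. These small ubiquitin-like proteins are conjugated to phosphatidylethanolamine on the autophagosome and bind receptors through short LC3-interacting motifs. All 5 genes were above 0 (median 0.32), and 4 had no overlap between the groups. Map1lc3b (chromosome 8, 121590361 to 121598760, GRCm38) encodes LC3B, the form most often used to follow autophagosomes. It was at 127, 119 and 114 CPM in the EV controls and at 169.7, 167 and 200.0 CPM in p27OE. Every p27OE library was thus above every control, with p27OE 3 the highest. Its level rose by a factor of 1.49 in mean CPM, or 0.58 ± 0.10 on the log2 scale (SE; 95% interval 0.34 to 0.81; edgeR adjusted p = 0.045).

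Gabarapl1, a GABARAP paralogue (chromosome 6, 129533160 to 129542346), was at 63.0, 63.0 and 64.5 CPM in the EV control libraries, which differed by little, and at 80.1, 85.6 and 97.2 CPM in p27OE. It rose by 0.46 ± 0.09 on the log2 scale (SE; edgeR adjusted p = 0.0493). Its exons overlap those of 1700101I11Rik on the opposite strand by 570 bases, and that gene had at most 12 counts in any library against at least 2519 for Gabarapl1.

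Map1lc3a, for LC3A, was at 66.6, 57.4 and 62.5 CPM in the EV controls and 84.6, 75.6 and 72.7 CPM in p27OE. The groups did not overlap, and it did not pass (0.32 ± 0.09, SE; edgeR adjusted p = 0.0889). Gabarap, at 263, 253 and 259 CPM against 295, 297 and 320.03 CPM, also showed no overlap without passing (0.23 ± 0.07; adjusted p = 0.108). Gabarapl2, which encodes GATE-16, was the family member with overlap, at 35.2, 43.2 and 41.2 CPM in the EV controls and 42.0, 47.5 and 60.3 CPM in p27OE (0.32 ± 0.15; adjusted p = 0.232). In it p27OE 1 was lower than EV control 2, and p27OE 3 stood well above the rest.

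Levels between genes were compared per kilobase of the longest principal GENCODE transcript. On that scale Gabarap was the most abundant ATG8 transcript in every library, at 191 ± 3.66 CPM per kilobase in EV control and 225 ± 10.4 in p27OE (SD, n = 3 each). Map1lc3a followed at 55.9 ± 4.15 and 69.8 ± 5.58, Map1lc3b at 47.3 ± 2.59 and 70.6 ± 7.27, Gabarapl1 at 34.9 ± 0.47 and 48.2 ± 4.78, and Gabarapl2 at 23.8 ± 2.48 and 29.8 ± 5.60. With these lengths Gabarap, Gabarapl1 and Gabarapl2 overlapped no neighbour in this order in either group. Gabarapl1 also has a principal transcript of 539 bases instead of 1820, which would raise its level per kilobase. Its place and the family shares with that length were not computed. Map1lc3a lay above Map1lc3b by more than their spread in EV control but not in p27OE. The place of Map1lc3b depends on the length used: with all annotated exons (7517 bases instead of 2532) its mean in EV control became 15.9 CPM per kilobase, the lowest of the family, while Gabarap stayed the highest. Gabarap made up 54.0% to 54.3% of the family's summed level per kilobase in the EV control libraries and 50.3% to 51.2% in the p27OE libraries, with no overlap between groups. Map1lc3b made up 12.8% to 13.9% and 15.3% to 16.8%.

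The ratio of Gabarapl1 to Gabarap counts was 0.246 ± 0.006 in EV control and 0.288 ± 0.016 in p27OE (SD, n = 3). Its exact two-sided permutation test gave p = 0.1, the smallest that 3 against 3 samples allow (adjusted p = 0.2 over the 2 ratios tested). For Map1lc3a to Map1lc3b the ratio was 0.519 ± 0.032 and 0.439 ± 0.069 (exact permutation p = 0.2, adjusted p = 0.2). Neither ratio could pass in this design. Both were chosen after the values were seen, and each holds a gene that rose in the fit, so they are a description only.

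Among the 4 cargo receptors, all above 0 (median 0.32), Optn rose. It (chromosome 2, 5020642 to 5064051) encodes optineurin, a receptor for ubiquitylated mitochondria and bacteria whose binding to LC3 is strengthened by the kinase TBK1. It was at 16.1, 13.9 and 14.9 CPM in the EV controls and 24.2, 20.1 and 23.0 CPM in p27OE, with no overlap. The log2 fold change was 0.58 ± 0.11 (SE; 95% interval 0.33 to 0.84; edgeR adjusted p = 0.0493), the highest of the 35 members. Here p27OE 1 was the highest library, unlike in Map1lc3b and Gabarapl1.

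Nbr1, a receptor for ubiquitylated aggregates and peroxisomes, was at 113, 97.2 and 102 CPM in the EV controls and 136, 129.6 and 139.9 CPM in p27OE. It showed no overlap and did not pass (0.38 ± 0.08, SE; edgeR adjusted p = 0.0627). Tax1bp1, at 135, 127 and 129 CPM against 156, 146 and 169 CPM, had no overlap either (0.27 ± 0.08; adjusted p = 0.100). Sqstm1 encodes p62, the receptor for ubiquitylated protein that is itself degraded by autophagy and is also induced by oxidative stress. It had the most counts of the set, up to 19868 in a library, and its groups overlapped: 375, 329 and 324 CPM in the EV controls and 351, 389 and 459.7 CPM in p27OE (0.22 ± 0.12; adjusted p = 0.306). EV control 1 was above p27OE 1.

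**Figure D2:**
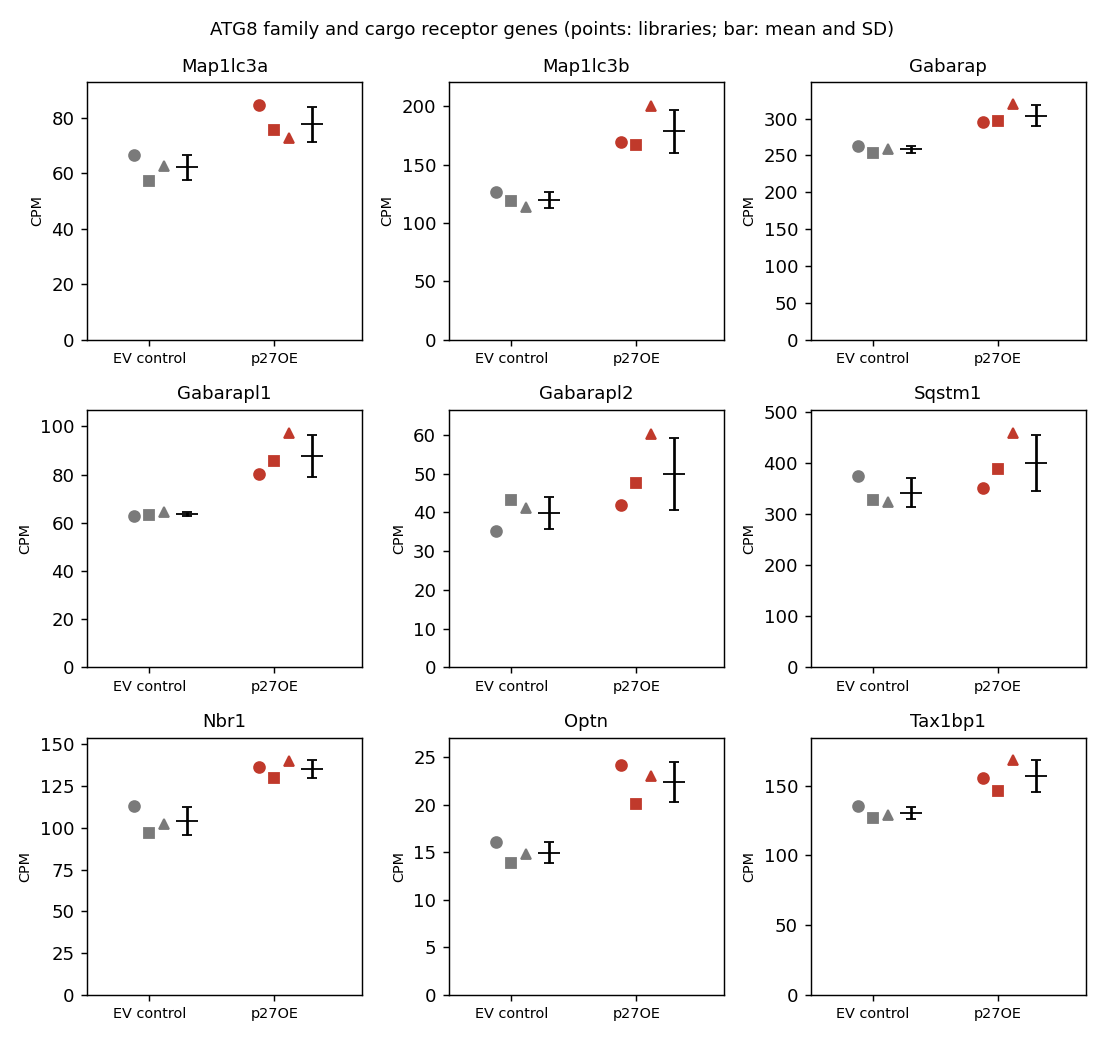
CPM of the 5 ATG8 family genes and 4 cargo receptors in each library (circle, square and triangle are replicates 1, 2 and 3; black bars are the mean and SD of 3 libraries; axes start at 0). The groups do not overlap in 7 of the panels and do in Gabarapl2 and Sqstm1.

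The promoters of the 3 genes that rose are shown with those of Atg14, the next in p, and Atg3, which encodes the enzyme that passes ATG8 proteins to lipid. The last pair carries the E-box CACGTG, the core of the element bound by TFEB and TFE3, transcription factors that drive lysosome and autophagy genes. Since 4 of the 5 were picked by their p, the windows show the letters and support no comparison of carriers with non-carriers. Each window holds 250 bases before and 30 after the RefSeq start (GRCm38.p6, 5′ to 3′ on the gene's strand), and capitals mark CACGTG and the GC box GGGCGG on either strand.
Map1lc3b (chr8:121590188-121590467, plus strand): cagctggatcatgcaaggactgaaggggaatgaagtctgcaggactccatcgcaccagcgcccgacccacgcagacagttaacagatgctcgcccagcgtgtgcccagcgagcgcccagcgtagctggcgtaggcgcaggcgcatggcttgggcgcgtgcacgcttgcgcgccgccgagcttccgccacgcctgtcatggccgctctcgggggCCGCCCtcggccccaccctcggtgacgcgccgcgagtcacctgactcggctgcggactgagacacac
Gabarapl1 (chr6:129532942-129533221, plus strand): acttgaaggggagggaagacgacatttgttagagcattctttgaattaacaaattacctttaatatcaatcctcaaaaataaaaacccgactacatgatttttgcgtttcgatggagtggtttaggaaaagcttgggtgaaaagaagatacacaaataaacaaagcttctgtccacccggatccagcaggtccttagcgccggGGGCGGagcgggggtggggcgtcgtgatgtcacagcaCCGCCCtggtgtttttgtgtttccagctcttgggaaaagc
Optn (chr2:5064088-5064367, minus strand): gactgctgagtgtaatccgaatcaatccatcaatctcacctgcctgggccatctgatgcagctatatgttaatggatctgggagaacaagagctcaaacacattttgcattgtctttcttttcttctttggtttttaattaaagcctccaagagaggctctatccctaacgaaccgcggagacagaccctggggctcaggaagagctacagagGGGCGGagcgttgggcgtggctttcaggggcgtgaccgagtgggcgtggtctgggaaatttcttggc
Atg14 (chr14:47568405-47568684, minus strand): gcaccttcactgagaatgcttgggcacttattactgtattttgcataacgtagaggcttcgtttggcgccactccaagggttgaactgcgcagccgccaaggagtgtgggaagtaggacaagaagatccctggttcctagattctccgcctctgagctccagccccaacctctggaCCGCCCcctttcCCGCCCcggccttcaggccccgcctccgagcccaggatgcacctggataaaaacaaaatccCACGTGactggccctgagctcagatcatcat
Atg3 (chr16:45158579-45158858, plus strand): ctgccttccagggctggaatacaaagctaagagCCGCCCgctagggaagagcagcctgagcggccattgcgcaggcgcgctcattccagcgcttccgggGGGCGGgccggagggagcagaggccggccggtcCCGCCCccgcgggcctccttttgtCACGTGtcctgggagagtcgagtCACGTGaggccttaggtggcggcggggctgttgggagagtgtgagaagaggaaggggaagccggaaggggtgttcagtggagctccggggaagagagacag

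Of the 35 members 29 had an entry in the promoter table. CACGTG was in the windows of 4, Atg14, Atg3, Atg5 and Atg7 (13.8% of the 29, beside 7.71% of 27025 genes in the table). In Atg14, Atg3 and Atg7 it sat in the longer form GTCACGTG (10.3%, beside 2.48% of genes). The Atg7 window, from 114670846 on chromosome 6, lies inside the GENCODE gene, which starts at 114643097. The Atg14 window ends at 47568684, inside a minus-strand gene that reaches 47570649. Neither window is therefore at the outermost annotated start of its gene. The 4 carriers had log2 fold changes of 0.55 (Atg14), 0.08 (Atg3), −0.01 (Atg5) and 0.08 (Atg7), and none passed. The 3 genes that rose held no CACGTG in these windows, which, as they were picked for rising, is a description only. A GC box was in the windows of 20 of the 29 (69%, beside 37.3% of genes), including Map1lc3b, Gabarapl1 and Optn. The gene shares cover all 27025 genes of the promoter table, tested here or not, while all 29 members were tested. These matches describe the letters in the windows and do not show binding.

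The Beclin 1 lipid kinase genes were above 0 in all 5 cases (median 0.26), and 0 passed. VPS34 (Pik3c3), its scaffold VPS15 (Pik3r4) and Beclin 1 form a core that ATG14 directs to the site where autophagosomes start and UVRAG to endosomes and later steps. Atg14 was at 12.3, 10.4 and 11.2 CPM in the EV controls and 15.1, 17.5 and 16.8 CPM in p27OE, with no overlap. Its log2 fold change, 0.55 ± 0.11 (SE), missed the threshold by little (edgeR adjusted p = 0.0532). Pik3c3 (0.04 ± 0.11) and Pik3r4 (0.13 ± 0.08) were near 0, Becn1 was at 0.26 ± 0.10 and Uvrag at 0.31 ± 0.14 (edgeR adjusted p from 0.157 to 0.862 for these 4). Becn1 and Uvrag had no overlap between groups. Becn1 shares 3104 exon bases with Cntd1 on the opposite strand, a gene with 8 to 20 counts per library.

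The membrane supply genes of the ATG9, ATG2 and WIPI group had a median of 0.19, with 4 of 5 above 0 and 0 passing. Wipi1, which binds the lipid made by VPS34, was at 79.9, 70.1 and 73.1 CPM in the EV controls and 90.2, 93.8 and 105 CPM in p27OE (0.37 ± 0.09, SE; edgeR adjusted p = 0.0683). Atg2a, a lipid transfer protein, was at 39.7, 33.3 and 38.3 CPM against 46.7, 46.1 and 51.3 CPM (0.37 ± 0.09; adjusted p = 0.0719). Both had no overlap. Of the paralogues, Atg2b was at −0.11 ± 0.09 with a 95% interval from −0.32 to 0.11, and Wipi2, the form that recruits ATG16L1, was at 0.19 ± 0.08 with no overlap. Atg9a, the scramblase carried on vesicles, was at 79.3 ± 1.80 CPM in the EV controls and 88.1 ± 0.91 CPM in p27OE (SD, n = 3), a small difference with no overlap that did not pass (adjusted p = 0.162). In GENCODE 29.8% of the 50-base stretches of Atg9a also belong to the gene model Gm29253, so its count is less certain.

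In the ULK1 kinase complex, 4 of 5 genes were above 0 (median 0.26) and 0 passed. Ulk1, the kinase that starts autophagy, was at 0.33 ± 0.11 (SE; adjusted p = 0.123) and Ulk2, its paralogue, at 0.26 ± 0.10 (adjusted p = 0.175). Atg101, which holds ATG13 in a stable form, was at 0.28 ± 0.10 and Atg13 at 0.15 ± 0.09. Rb1cc1, for the scaffold FIP200, was at −0.05 ± 0.14, and its p27OE libraries fell on both sides of the controls, at 78.5, 85.2 and 110.03 CPM against 88.1, 100.4 and 94.9 CPM. Ulk1 and Atg101 had no overlap between groups.

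Atg12, Atg5, Atg10, Atg16l1 and Atg16l2 build the complex that acts as the ligase for ATG8 proteins. Of these 4 of 5 were above 0 (median 0.20) and 0 passed; Atg12 had the smallest p. This ubiquitin-like protein gene was at 34.9, 32.0 and 31.1 CPM in the EV controls and 39.9, 40.03 and 48.2 CPM in p27OE, with no overlap (0.39 ± 0.10, SE; edgeR adjusted p = 0.0786). Atg5, its conjugation partner, was at 31.7 ± 1.56 and 31.6 ± 1.13 CPM (SD, n = 3) in the 2 groups. Its log2 fold change was −0.01, with a 95% interval from −0.18 to 0.17. Atg16l1 was at 0.20 ± 0.13, Atg16l2 at 0.15 ± 0.16 and Atg10, the E2 enzyme for ATG12, at 0.24 ± 0.22. Atg10 had the fewest counts of the set, 168 to 299 per library, and the widest interval.

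Of the 6 ATG8 processing and conjugation enzymes 5 were above 0, with a median of 0.08 and 0 passing. Atg7, the E1 enzyme that activates both ATG8 and ATG12 proteins, was at 0.08 ± 0.08 and Atg3 at 0.08 ± 0.07. Of the ATG4 proteases, which trim ATG8 proteins and release them from lipid, Atg4a was at 0.25 ± 0.10 with no overlap, Atg4b at 0.14 ± 0.09 and Atg4c at 0.04 ± 0.16. Atg4a shares 51.2% of its 50-base stretches with its pseudogene Atg4a-ps, which makes its count uncertain. Atg4d, chosen for description after its values were seen, lay below 0, at 11.1, 11.5 and 11.4 CPM in the EV controls and 9.15, 9.68 and 8.60 CPM in p27OE, with no overlap. It did not pass (−0.31 ± 0.10, SE; adjusted p = 0.115). It shares 1405 exon bases with Kri1 on the opposite strand, which had 949 to 1718 counts per library against 358 to 698 for Atg4d, so its count is uncertain too.

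**Figure D3:**
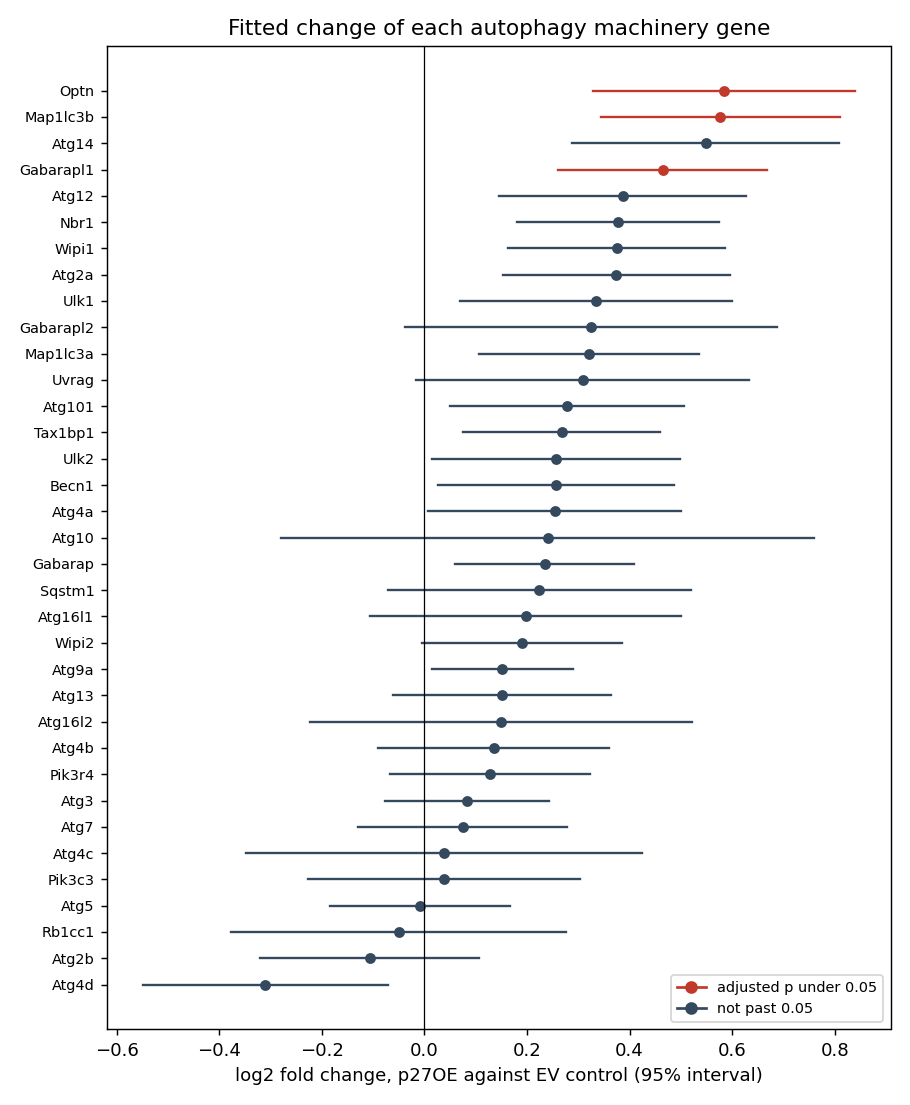
Log2 fold change of each of the 35 genes (points) with its 95% interval (lines), from the fit across all tested genes; red marks adjusted p under 0.05. Intervals of 17 genes lie above 0, that of Atg4d lies below 0, and 24 intervals stay inside 1.5-fold in either direction.

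The intervals bound what these libraries could show. For 24 of the 35 members the 95% interval of the fold change stayed within 1.5-fold in both directions, among them Atg3, Atg5, Atg7 and Atg9a. For the other 11, including the 3 that rose, a change beyond 1.5-fold lay inside the interval.

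The size of the difference varied with the libraries compared. Between p27OE 1 and EV control 1, the 2 libraries with few Y-linked transcripts, the median member differed by 0.17 log2 units, and between p27OE 3 and the mean of EV control 2 and 3, all rich in them, by 0.32. Of the 35 members 25 were higher in p27OE in both differences, 1 (Atg4d) was lower in both, and 9 had opposite signs. Over all 13990 tested genes these counts were 5184, 4913 and 3893, and the medians of the 2 differences were −0.002 and 0.03. Sqstm1 was among the 9 members with opposite signs, at −0.09 and 0.50 log2 units. Map1lc3b differed by 0.42 and 0.78, Gabarapl1 by 0.35 and 0.61, Atg14 by 0.30 and 0.64 and Optn by 0.58 and 0.68. A further difference was taken between p27OE 2, with 57.1 CPM of Y-linked transcripts, and the mean of EV control 2 and 3. Its median was 0.19 over the members and 0.02 over all tested genes. Each difference rests on 2 or 3 libraries and carries no test, and these libraries also enter the fit. Few Y-linked transcripts and replicate number 1 coincide in these libraries and cannot be told apart. The level of Cdkn1b varied along with them. It differed by 1.92 log2 units between p27OE 1 and EV control 1. Against the mean of EV control 2 and 3 it differed by 2.86 in p27OE 2 and 3.40 in p27OE 3. Its part in the size of the member differences was not tested.

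**Figure D4:**
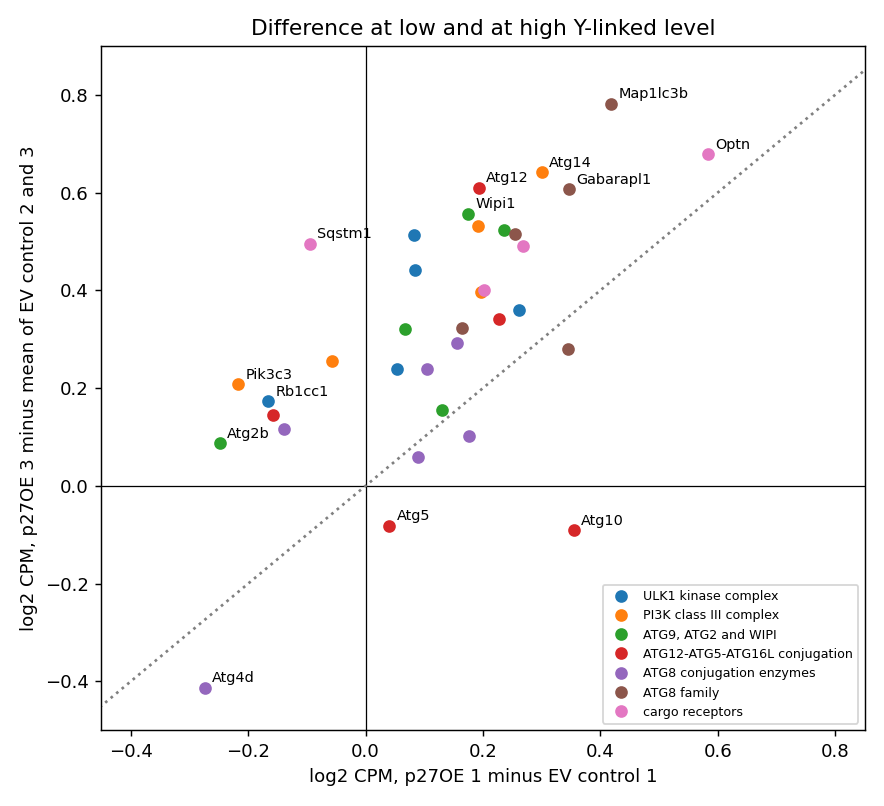
Log2 CPM of p27OE 3 minus the mean of EV control 2 and 3 (y axis, many Y-linked transcripts) against p27OE 1 minus EV control 1 (x axis, few) for the 35 genes, coloured by step; the dotted line marks equal differences. Most points lie above the line, and 25 lie above 0 on both axes, as do 5184 of all 13990 tested genes (not drawn).

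In a model that also held a term for the Y-linked level, a model chosen with earlier results of these data known, 19 members rose and 1 (Atg4d) fell. That is 54.3% and 2.86% of the members, beside 18.0% and 16.0% of all tested genes (34.0% in all). All 5 ATG8 genes rose in it, and so did Atg14, Nbr1, Tax1bp1, Optn, Wipi1, Wipi2, Atg2a, Atg9a, Atg12, Atg16l1, Ulk1, Atg101, Becn1 and Uvrag. Sqstm1 did not pass (0.23; edgeR adjusted p = 0.128), nor did Atg3, Atg7, Atg5 or the other 3 ATG4 genes. The fold changes themselves hardly moved, with a median of 0.24 in both models.

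The 3 calls sat close to the threshold. Leaving out EV control 2, EV control 3 or any single p27OE library left 0 members called, in fits that called only 1 or 2 genes of the whole table, and leaving out EV control 1 gave 9, all higher (6.13% of all genes were then higher and 6.75% lower). Leaving out both libraries numbered 1 also gave 9, all higher (beside 7.81% and 8.90% of all genes). Over the 6 omissions of a single library Map1lc3b stayed between 0.49 and 0.61 on the log2 scale (adjusted p 0.0259 to 0.217), Gabarapl1 between 0.38 and 0.51 (0.0384 to 0.225) and Optn between 0.51 and 0.64 (0.0294 to 0.224). Map1lc3b passed under every other scaling, filter and tool tried, while Gabarapl1 did not with DESeq2's size factors in edgeR or without the filter (adjusted p up to 0.0517), and Optn did not with upper-quartile or total-count scaling or without the filter (up to 0.0586). DESeq2 called 11 members higher and 1 lower, beside 8.19% and 8.41% of all genes.

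Beyond the core machinery, a list of 60 genes that regulate autophagy, shape early membranes, fuse the autophagosome with the lysosome or act as other receptors was read in the same fit, with 59 tested. Of these 42 were above 0 and 17 below (median 0.18), 1 rose and 1 fell (1.69% each, beside 1.77% and 0.843% of all genes). The list was chosen with earlier results of these data known, so its counts are a description only. Trp53inp2, for DOR, a protein that binds ATG8 proteins and moves from the nucleus to autophagosomes, was at 84.3, 83.9 and 81.2 CPM in the EV controls and 119, 115 and 131 CPM in p27OE, with no overlap. It rose by 0.55 ± 0.07 on the log2 scale (SE; edgeR adjusted p = 0.0303). Bnip3, a mitophagy receptor of the outer mitochondrial membrane that low oxygen induces, was at 200.4, 192 and 149.9 CPM in the EV controls and 87.2, 103 and 99.6 CPM in p27OE. It fell by 0.91 ± 0.13 (SE; adjusted p = 0.0348), opposite in direction to Optn. Leaving out any library other than EV control 1 ended both calls, with adjusted p up to 0.191 for Trp53inp2 and 0.183 for Bnip3, in the same fits that called 1 or 2 genes of the whole table.

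The next 4 in p did not pass. Trp53inp1, a p53 target that also binds ATG8 proteins, was at 58.0, 35.7 and 39.1 CPM in the EV controls and 96.2, 87.7 and 80.2 CPM in p27OE (0.99 ± 0.19, SE; edgeR adjusted p = 0.0521). Tecpr1, an ATG5 binding protein of the lysosome, was at 0.48 ± 0.10, Tex264, a receptor for endoplasmic reticulum, at 0.28 ± 0.06, and Vps18, a tethering subunit, at 0.37 ± 0.09 (adjusted p = 0.0555, 0.0667 and 0.0675). All 4 had no overlap between the groups. By step, the fusion and tethering genes had 11 of 12 above 0 (median 0.20), the regulators 12 of 16 (0.16), the early membrane factors 8 of 12 (0.14), the other receptors 9 of 15 (0.17), and the mitophagy and receptor kinase genes 2 of the 4 tested (0.16).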

How the data were processed

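Per the labels' protocols, the TruSeq RNA v2 kit was used on column-extracted RNA; that kit does not mark strand. TopHat2 2.0.14, Bowtie2 2.2.6, featureCounts 1.4.6, Subread and the mm10 genome are named in the submitters' processing notes; the annotation, strand setting and filters have no entry there ("not given in the sources used here"). Whole-number read counts per gene symbol were deposited by the authors. From these, genes were kept by filterByExpr, scaled by TMM and tested with edgeR 4.0.16 (glmQLFit, robust; glmQLFTest, two-sided) in R 4.3.3, group alone, with Benjamini-Hochberg adjustment over all tested genes and a threshold of 0.05. A prior count of 2 was used for log2 CPM. The code was tested on simulated data. Coordinates, exon overlaps and shared 50-base stretches come from GENCODE M21 (GRCm38), promoters from RefSeq. Alternatives were other scalings, filters, DESeq2 1.42.0, limma-voom 3.58.1, the replicate number as a block, a Y-linked term (Uty, Kdm5d, Eif2s3y and Ddx3y CPM, summed and divided by the highest sum) and omitted libraries. The members and lists were chosen with earlier results of these data known. The ratios of paralogue counts were added after the values were seen. Values by library are given for called members, the 10 of smallest p, ATG8 genes and receptors, and of the wider list the 6 of smallest p are named. Rb1cc1, Atg4d and, of the wider list, Dapk1 are also given by library, outside this rule.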

Additional observations from a re-analysis of the deposited data

How the results depend on the processing

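The model with the group alone called 365 genes, 3 members and 2 genes of the wider list. DESeq2 called 2321, 12 and 18, the Y-linked term 4761, 20 and 25, and omission of both libraries numbered 1 gave 2334, 9 and 18. The replicate block gave 2410, 9 and 14. Same-numbered libraries deviated together with r = 0.67, 0.04 and 0.50, and differently numbered ones with r from −0.63 to 0.56 (EV control 2 with p27OE 3). The labels do not state that replicate numbers pair the libraries, so the libraries were not treated as paired. Leaving out each library gave 1 to 1827 genes (1 or 2 unless it was EV control 1), 0 to 9 members and 0 to 16 wider genes, with Cdkn1b between 2.48 and 2.97. No filter left 1 member, Map1lc3b, of 317 genes. The other scalings gave 2 members each, of 313 to 328 genes called, the stricter filter 4 of 497 and limma-voom 3 of 420. The median member stayed between 0.17 and 0.27 over all settings. The cause of these shifts was not tested. No called value changed sign; Rb1cc1, Pik3c3, Atg5 and Atg4c, all near 0, did in a leave-one-out fit.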

Other observations

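Some members differed between EV control 1 and the other controls by as much as between the groups. EV control 1 lay above the mean of EV control 2 and 3 by 0.45 log2 units in Atg4c, 0.39 in Atg16l2, 0.35 in Ulk1 and 0.31 in Pik3c3. It lay below that mean by a difference of −0.23 in Atg16l1. In Gabarapl2 the difference was −0.26, smaller in size than the group difference of 0.32. These genes were chosen after their values were seen, and the differences carry no test. In the wider list Dapk1, a kinase that phosphorylates Beclin 1, was at 20.3 CPM in EV control 1 and at 6.51 and 7.02 CPM in EV control 2 and 3, and at 36.8, 26.4 and 17.8 CPM in p27OE 1, 2 and 3. Its log2 fold change of 1.26 ± 0.50 (SE) did not pass (edgeR adjusted p = 0.179). Dapk1 too was chosen after its values were seen.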
